A study of Homo sapiens with 9 samples.

Results

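The genes described here are the major histocompatibility complex (MHC) class I heavy chains HLA-B, HLA-C, HLA-E, HLA-F and HLA-G, their light chain B2M, the peptide transporter subunits TAP1 and TAP2, the loading factor TAPBP and the immunoproteasome subunit PSMB9. They were chosen by gene name, with every probe set annotated to 1 of them. That gave 10 of 11963 genes on the array and 26 of 22215 human probe sets, a probe set being a group of short probes read as 1 value. The arrays profiled total RNA of MDA-MB-231 cells, a human breast cancer line that grows attached to the flask. The paclitaxel-resistant line was kept in medium with 7 nM paclitaxel and 1 µM verapamil, the docetaxel-resistant line with 2 nM docetaxel and 1 µM verapamil, and the sensitive cells with 1 µM verapamil and neither taxane. Both taxanes stabilize microtubules, and verapamil, which all 3 groups received, is a calcium channel blocker that also inhibits the P-glycoprotein efflux pump. Each group has 3 arrays from separate passages. Each resistance is represented by 1 line, so errors and p-values reflect the spread between passages, and drug in the medium cannot be told apart from the selected line.

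Class I molecules show peptides from inside the cell to CD8+ T cells and to natural killer cells, and nearly every nucleated cell carries them. The proteasome, in which PSMB9 replaces a constitutive subunit under interferon, cuts proteins into peptides, and TAP1 and TAP2 carry those into the endoplasmic reticulum. There TAPBP (tapasin) holds the heavy chain and B2M at the transporter until a peptide is bound. HLA-B and HLA-C are classical chains that present varied peptides, while HLA-E, HLA-F and HLA-G are non-classical chains read largely by receptors of natural killer and myeloid cells.

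The promoters of the heavy chains and of B2M carry related elements, which is why stretches of them are shown. The letters are the RefSeq sequence of build GRCh38.p14, from 180 to 41 bases before the annotated start, 5′ to 3′ in the direction of the gene. Capitals mark CCAAT, which NF-Y binds, TGACG, the core of cyclic AMP response elements, and TTTCNNTT, a form of the element bound by interferon regulatory factors, each on either strand.

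HLA-B, chr6:31357220-31357359, minus strand: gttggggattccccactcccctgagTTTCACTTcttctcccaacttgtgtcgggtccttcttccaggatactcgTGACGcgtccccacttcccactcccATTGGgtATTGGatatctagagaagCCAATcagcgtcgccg

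HLA-C, chr6:31272133-31272272, minus strand: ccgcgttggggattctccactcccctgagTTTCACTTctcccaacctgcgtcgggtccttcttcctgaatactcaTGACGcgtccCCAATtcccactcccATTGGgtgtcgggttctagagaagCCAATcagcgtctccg

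HLA-F, chr6:29723254-29723393, plus strand: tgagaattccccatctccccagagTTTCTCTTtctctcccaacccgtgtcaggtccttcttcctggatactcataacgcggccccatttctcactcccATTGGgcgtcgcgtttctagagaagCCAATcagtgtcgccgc

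HLA-G, chr6:29827645-29827784, plus strand: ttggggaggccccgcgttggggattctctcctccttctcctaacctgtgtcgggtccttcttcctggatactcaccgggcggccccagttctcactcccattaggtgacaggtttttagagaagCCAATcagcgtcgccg

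B2M, chr15:44711337-44711476, plus strand: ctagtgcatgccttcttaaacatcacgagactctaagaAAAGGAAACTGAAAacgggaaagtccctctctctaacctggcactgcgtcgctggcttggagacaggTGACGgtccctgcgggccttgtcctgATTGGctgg

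TAP1, chr6:32853745-32853884, minus strand: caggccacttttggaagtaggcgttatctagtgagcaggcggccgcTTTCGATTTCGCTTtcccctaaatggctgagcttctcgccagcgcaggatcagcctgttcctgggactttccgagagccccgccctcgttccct

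The RefSeq promoter table listed 9 of the 10 genes, all but HLA-E. For HLA-G, with 3 listed starts, the one farthest downstream was used, and for TAP1 the first of its 2. HLA-B and HLA-C held the same number of each marked motif, with CCAAT 3 times and TGACG and TTTCNNTT 1 time each. HLA-F held CCAAT 2 times and TTTCNNTT 1 time, and HLA-G held CCAAT 1 time and neither of the others in these letters. B2M held CCAAT and TGACG 1 time each and TTTCNNTT 2 times, the pair sharing letters. TAP1 and TAP2 each held TTTCNNTT 2 times, PSMB9 held TGACG 1 time, and TAPBP held none of these motifs in this window. Over 35116 promoter stretches of the same length and position, 22.8% held CCAAT, 13.2% TGACG and 11.6% TTTCNNTT. TAP1 and PSMB9 lie head to head, with starts 488 bases apart. These matches describe the letters and were not tested for binding.

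The deposited values are intensities on a linear scale, summarized from the probes by the authors. The median intensity of an array ran from 33.7 in sensitive replicate 2 to 43.9 in docetaxel-resistant replicate 3, and 24.0% to 27.0% of probe sets lay under 16. The correlation of arrays across probe sets was 0.970 to 0.991 within a group, 0.966 to 0.981 between the resistant lines and 0.901 to 0.959 where 1 of the pair was sensitive. Of 6 epithelial markers KRT18 read 3154 in paclitaxel-resistant, 3325 in docetaxel-resistant and 3640.4 in sensitive cells, while EPCAM read 14.3 in paclitaxel-resistant, 14.8 in docetaxel-resistant and 22.1 in sensitive cells and CDH1 62.8, 61.0 and 83.3 in that order. Of these 6 only KRT7 was called, higher in both resistant lines. Of 5 markers of mesenchymal-type breast cancer lines 0 rose in either line, and the vimentin gene VIM fell in both, to 5223 in paclitaxel-resistant and 4682 in docetaxel-resistant cells, against 8335 in sensitive cells. CD44 fell in docetaxel-resistant cells and was not called in paclitaxel-resistant cells, AXL, CAV1 and LGALS1 were not called, and the sums of the 5 were 14562 to 16139 in paclitaxel-resistant, 12862 to 14179 in docetaxel-resistant and 16412 to 20612 in sensitive arrays. Of 9 measured blood cell markers 0 were called in either comparison with sensitive cells, and their summed intensity was 254 to 314 in paclitaxel-resistant, 274 to 298 in docetaxel-resistant and 253 to 283 in sensitive arrays, with the blood cell marker PTPRC at 7.80, 9.90 and 9.29 in that order. Of 8 fibroblast markers only PDGFRB was called, higher in both lines, and the sums were 323 to 406, 344 to 401 and 286 to 326 in the same order of groups. The 3′ minus 5′ log2 difference of the GAPDH control probe sets, a sign of RNA quality, was 0.094 to 0.20 in paclitaxel-resistant, 0.0067 to 0.13 in docetaxel-resistant and 0.015 to 0.039 in sensitive arrays. For beta-actin it was -0.13 to 0.17, -0.15 to -0.11 and -0.26 to -0.02 in the same order of groups, and the part of these measures in the results was not tested.

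Probe sets of the heavy chains HLA-B, HLA-E, HLA-F and HLA-G were lower in both resistant lines, while HLA-C, B2M, TAP1, TAP2, TAPBP and PSMB9 did not pass the test. Between paclitaxel-resistant and sensitive cells 11 of the 26 probe sets were lower, 0 were higher and 15 were not called. The 11 came from HLA-B (3 of 3 probe sets), HLA-E (2 of 3), HLA-F (2 of 3) and HLA-G (4 of 4). The fit was limma's linear model on log2(intensity + 16) after quantile normalization, with p-values adjusted by Benjamini and Hochberg over all human probe sets and called below 0.05. Differences are log2 values on that scale, given ± SE with 3 arrays per group and in the order paclitaxel, docetaxel where a pair is given without names. Of all 22215 probe sets 18.6% were called, 9.37% lower and 9.21% higher. The median difference over the 26 probe sets was -0.40 on the log2 scale, against -0.03 over all probe sets. In whole-culture RNA, fewer cells that express a gene and less RNA per cell cannot be told apart. The count was 5 with an offset of 1 in place of 16, and 4 with either sensitive replicate 2 or paclitaxel-resistant replicate 3 left out. Over all 26 probe sets the groups did not overlap in 14 as deposited and 15 after normalization, always with the resistant arrays lower, against 29.9% and 32.1% of all probe sets without overlap in either direction. Without either array named above the differences of the 11 kept their direction, and 4 of the 11, HLA-F 204806_x_at and 221875_x_at and HLA-G 211529_x_at and 211530_x_at, were called under every alternative that tested them.

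Between docetaxel-resistant and sensitive cells the same 11 probe sets were lower, 0 were higher and 15 were not called. Of all probe sets 17.7% were called, 8.32% lower and 9.34% higher. Without between-array normalization the split of all calls was 1089 lower and 2126 higher, against 1848 and 2074 with it. The medians were -0.44 over the 26 and -0.05 over all. Groups did not overlap in 16 of the 26 as deposited, 15 of them lower in docetaxel-resistant cells, and in 14 after normalization, 13 of them lower, against 30.9% and 34.2% of all probe sets. Both comparisons share the sensitive arrays, so the values of the lines are given side by side. The docetaxel count rested on few arrays. It was 7 without sensitive replicate 2, 5 without docetaxel-resistant replicate 3 and 0 without both, the arrays of lowest and highest median intensity, a choice made after the data were seen. With both left out the differences of the 11 were still negative, from -0.60 to -0.35, the adjusted p ran from 0.0618 to 0.258, and 9 of the 11 had an unadjusted p under 0.05. The same omission left 9 of 26 in the paclitaxel comparison.

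All 11 probe sets that were called end in _x_at, the suffix Affymetrix gives to sets whose probes can bind transcripts of other genes, and the class I heavy chains are close in sequence. Signal of 1 heavy chain, including chains not described here, may therefore enter the probe sets of another. Of the 15 members ending in _x_at 11 were lower in each comparison, against 7.87% called lower in the paclitaxel and 7.04% in the docetaxel comparison among all 2428 probe sets with that suffix. Of the 11 members with another suffix 0 were called in limma's fit, with 1 at an unadjusted p under 0.05 in each comparison. Without sensitive replicate 1, limma called HLA-F 221978_at lower in the docetaxel comparison (adjusted p = 0.0315). Without paclitaxel-resistant replicate 2, it called TAP2 204769_s_at lower in the paclitaxel comparison (adjusted p = 0.0319). With all _x_at and _s_at probe sets removed, which kept 7 members, 0 were called, and none of the 11 lower probe sets was in that fit.

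**Figure D1:**
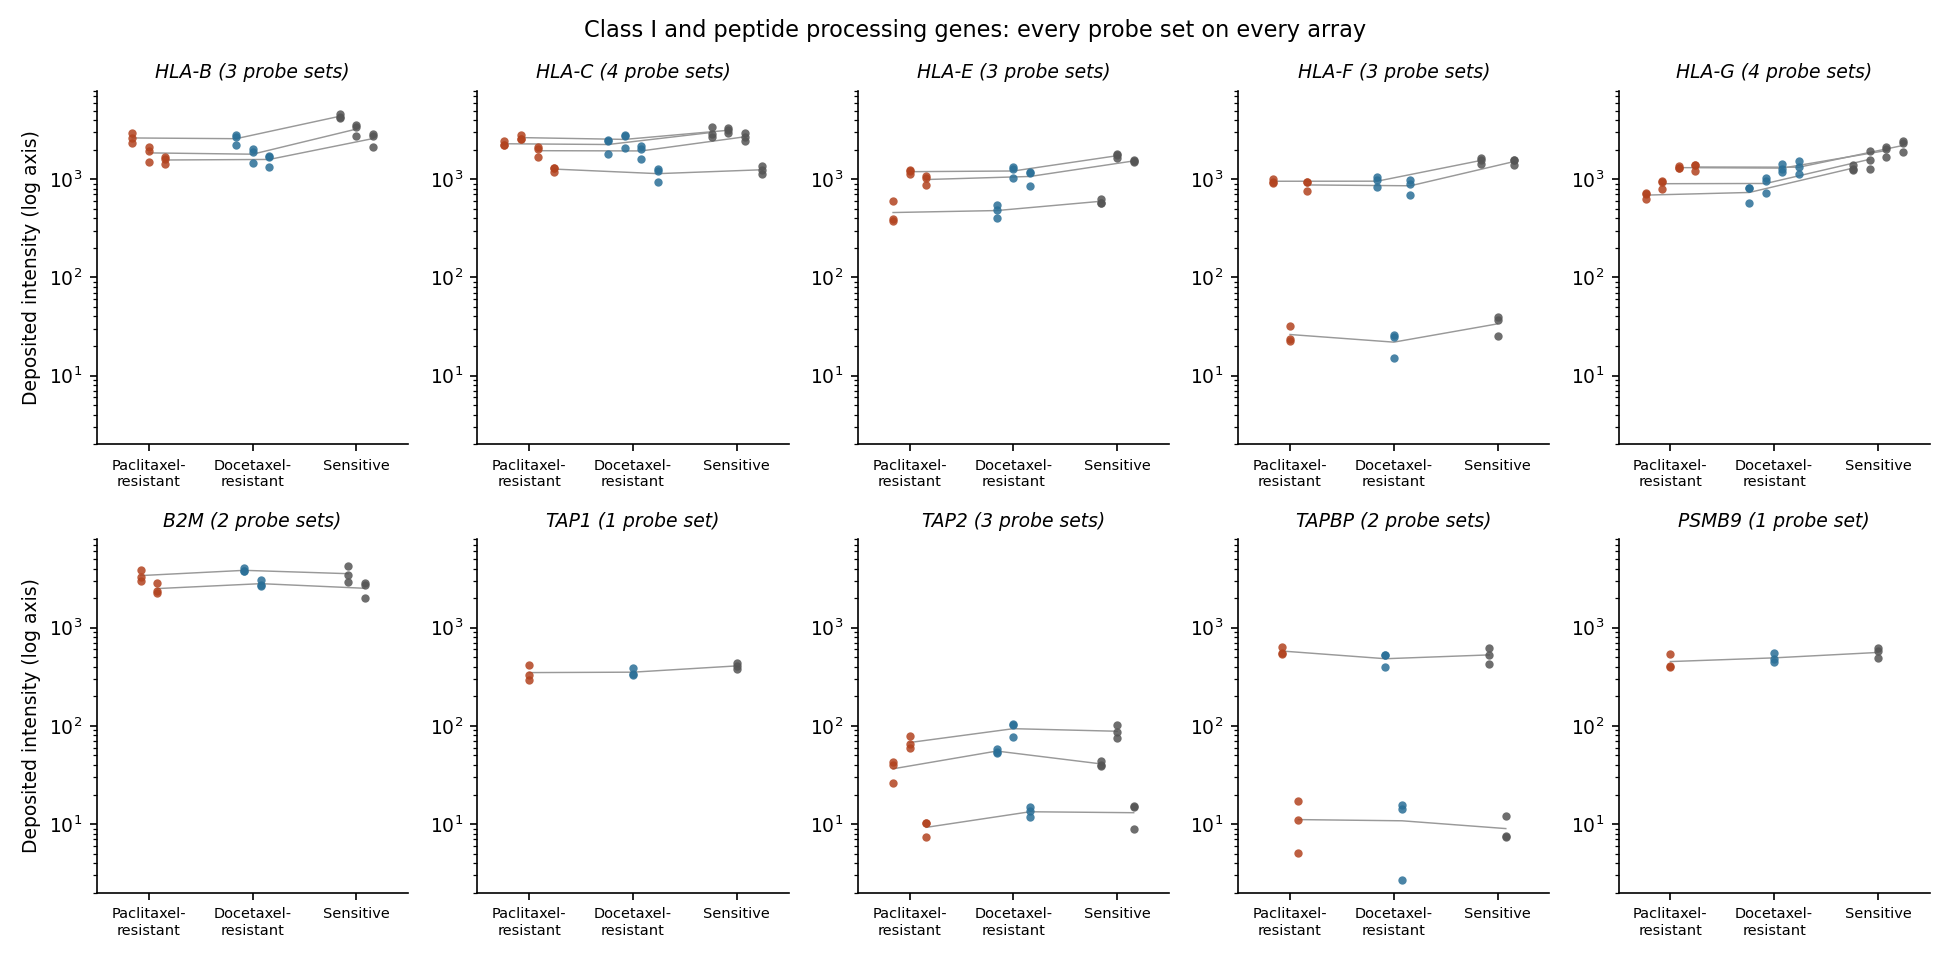
Deposited intensity (log axis) of every probe set of the 10 genes on each of the 9 arrays, by group. Each column of points is 1 probe set with its 3 arrays, and lines join group means. For HLA-B, HLA-F and HLA-G the sensitive arrays stand above the resistant ones in all probe sets ending in _x_at, while for B2M, TAP1, TAPBP and PSMB9 the points of each resistant line overlap those of sensitive cells.

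HLA-B, a classical chain and the heavy chain gene with the most known variants, was lower in all 3 of its probe sets. Probe set 209140_x_at read 2922, 2625 and 2342 in paclitaxel-resistant cells, 2720.0, 2819 and 2215 in docetaxel-resistant cells and 4292, 4603 and 4223 in sensitive cells. Every resistant array lay below every sensitive one, and the log2 difference from sensitive cells was -0.64 ± 0.16 (adjusted p = 0.0148) in the paclitaxel-resistant line and -0.70 ± 0.16 (adjusted p = 0.00972) in the docetaxel-resistant line. The intensity, taken on the scale with the offset, thus fell by 36.0% in paclitaxel-resistant and fell by 38.7% in docetaxel-resistant cells. Probe set 208729_x_at read 2139.6, 1937 and 1481 in paclitaxel-resistant cells, 2037, 1907 and 1446 in docetaxel-resistant cells and 3386, 3553 and 2775 in sensitive cells. Probe set 211911_x_at read 1681, 1599 and 1425 in paclitaxel-resistant cells, 1699.8, 1723 and 1344 in docetaxel-resistant cells and 2763, 2896 and 2118 in sensitive cells. In both the groups did not overlap, with differences of -0.74 ± 0.20 (adjusted p = 0.0203) and -0.69 ± 0.18 (adjusted p = 0.017) in paclitaxel-resistant cells and of -0.83 ± 0.20 (adjusted p = 0.0119) and -0.72 ± 0.18 (adjusted p = 0.0141) in docetaxel-resistant cells. The call of 209140_x_at was lost in 2 of 18 alternatives in the paclitaxel and 1 of 18 in the docetaxel comparison. That of 208729_x_at was lost in 3 of 17 and 2 of 17, and that of 211911_x_at in 3 of 17 in each. The lines overlapped each other in all 3 probe sets, with paclitaxel- minus docetaxel-resistant differences of 0.03 to 0.09 and intervals from -0.35 to 0.52.

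HLA-C, the classical chain that is also the main ligand of killer cell immunoglobulin-like receptors, passed the test in 0 of its 4 probe sets in either comparison by limma, with 1 at an unadjusted p under 0.05 in the paclitaxel and 2 in the docetaxel comparison. Probe set 216526_x_at read 2103, 1700.5 and 2049 in paclitaxel-resistant cells, 2026, 2183 and 1610.3 in docetaxel-resistant cells and 2453, 2676 and 2984 in sensitive cells. Its resistant arrays all lay below the sensitive ones, at -0.43 ± 0.18 (adjusted p = 0.123) in paclitaxel-resistant and -0.49 ± 0.18 (adjusted p = 0.081) in docetaxel-resistant cells. Probe set 208812_x_at read 2446, 2207 and 2232 in paclitaxel-resistant cells, 2456, 2524 and 1785 in docetaxel-resistant cells and 2706, 2871 and 3408 in sensitive cells, a difference of -0.31 and -0.39 in the order paclitaxel, docetaxel, and 214459_x_at differed by -0.17 and -0.28. Deposited intensities of these 3 probe sets lay below sensitive cells on every resistant array, while after normalization that held for 2 of the 4 in the paclitaxel and 1 of the 4 in the docetaxel comparison. Arrays lay below in this way for 14.1% and 12.3% of all probe sets as deposited and for 17.2% and 18.9% after normalization, in the same order. Probe set 211799_x_at overlapped in every pair of groups, at 1302, 1314 and 1188 in paclitaxel-resistant, 1205, 1271 and 940.4 in docetaxel-resistant and 1235, 1376 and 1131 in sensitive cells. Its differences were 0.04 ± 0.17 (adjusted p = 0.922) and -0.18 ± 0.17 (adjusted p = 0.531). Other settings called some HLA-C probe sets lower by limma. With arrays centred on their medians 216526_x_at had an adjusted p of 0.0326 in the paclitaxel and 0.019 in the docetaxel comparison, and 208812_x_at one of 0.0395 in the docetaxel comparison. With limma's mean-variance trend and robust prior 216526_x_at had one of 0.0416 in the docetaxel comparison, where it was also called without sensitive replicate 1. The paclitaxel difference of 211799_x_at turned to -0.055 when arrays were centred on their medians.

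HLA-E presents leader peptides of other class I chains to the receptors CD94/NKG2A and CD94/NKG2C. Its probe set 217456_x_at read 1087, 1019 and 871 in paclitaxel-resistant cells, 1173, 1164 and 861 in docetaxel-resistant cells and 1500.0, 1543 and 1561 in sensitive cells. Probe set 200905_x_at read 1247, 1208 and 1122 in paclitaxel-resistant cells, 1271, 1335 and 1030.4 in docetaxel-resistant cells and 1631, 1803 and 1770.2 in sensitive cells. Neither overlapped between resistant and sensitive cells. The differences were -0.63 ± 0.17 (adjusted p = 0.0235) and -0.53 ± 0.16 (adjusted p = 0.0376) in paclitaxel-resistant cells, and -0.59 ± 0.17 (adjusted p = 0.0334) and -0.59 ± 0.16 (adjusted p = 0.0258) in docetaxel-resistant cells. These calls depended on the settings. That of 217456_x_at was lost in 5 of 17 alternatives in the paclitaxel and 6 of 17 in the docetaxel comparison. That of 200905_x_at was lost in 9 of 18 and 5 of 18, in the same order, and all differences stayed negative. The third probe set, 200904_at, has no suffix for shared probes. It read 605, 392 and 376 in paclitaxel-resistant cells, 542, 491 and 405 in docetaxel-resistant cells and 572, 578 and 636 in sensitive cells. Paclitaxel-resistant replicate 1 lay among the sensitive arrays, and the differences of -0.39 ± 0.19 (adjusted p = 0.203) and -0.40 ± 0.19 (adjusted p = 0.192) did not pass the test. Their intervals, -0.82 to 0.03 and -0.83 to 0.02, hold both 0 and the differences of the pair ending in _x_at.

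HLA-F, a non-classical chain that can reach the surface without a bound peptide, was lower in 2 of 3 probe sets. Probe set 221875_x_at read 1001, 933 and 925 in paclitaxel-resistant cells, 974, 1049 and 841 in docetaxel-resistant cells and 1564, 1656 and 1436 in sensitive cells. Probe set 204806_x_at read 933, 929 and 761 in paclitaxel-resistant cells, 982, 901 and 688 in docetaxel-resistant cells and 1407, 1578 and 1553 in sensitive cells. No resistant array reached a sensitive one in either, and the differences were -0.69 ± 0.15 (adjusted p = 0.00754) and -0.79 ± 0.18 (adjusted p = 0.00981) in paclitaxel-resistant cells and -0.75 ± 0.15 (adjusted p = 0.00511) and -0.87 ± 0.18 (adjusted p = 0.00628) in docetaxel-resistant cells. The dim probe set 221978_at stayed between 15.2 and 39.4 on all arrays, below the median intensity of all probe sets on average, and differed by -0.31 ± 0.18 (adjusted p = 0.282) and -0.50 ± 0.18 (adjusted p = 0.078).

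HLA-G, best known from the placenta, where it restrains maternal immune cells, had all 4 probe sets lower, each ending in _x_at. Probe set 211530_x_at read 722, 707 and 636 in paclitaxel-resistant cells, 822, 807 and 569 in docetaxel-resistant cells and 1230.2, 1389 and 1272 in sensitive cells. It had the lowest difference of the 26 probe sets in both comparisons, at -0.89 ± 0.19 (adjusted p = 0.0063) in paclitaxel-resistant and -0.88 ± 0.19 (adjusted p = 0.00733) in docetaxel-resistant cells, with no overlap. Probe set 210514_x_at read 958, 940.1 and 800.3 in paclitaxel-resistant cells, 969, 1028 and 717 in docetaxel-resistant cells and 1561, 1948 and 1269.8 in sensitive cells. Its difference of -0.80 ± 0.21 (adjusted p = 0.019) in paclitaxel-resistant and -0.85 ± 0.21 (adjusted p = 0.0147) in docetaxel-resistant cells came with the widest error of the 4. Probe sets 211528_x_at and 211529_x_at differed by -0.57 ± 0.15 (adjusted p = 0.0204) and -0.70 ± 0.17 (adjusted p = 0.0128) in paclitaxel-resistant cells and by -0.65 ± 0.15 (adjusted p = 0.011) and -0.78 ± 0.17 (adjusted p = 0.00742) in docetaxel-resistant cells. The call of 211528_x_at was lost in 5 of 17 alternatives in the paclitaxel and 2 of 17 in the docetaxel comparison. That of 210514_x_at was lost in 3 of 17 and 4 of 17, in the same order. Calls of 211529_x_at and 211530_x_at were kept throughout in the paclitaxel comparison and each lost in 1 alternative in the docetaxel comparison. Which chain's transcripts the 4 sets read was not tested. A class I pseudogene of the same region, HLA-J, picked after its values were seen and also read by a probe set ending in _x_at, stood at 512, 447 and 544 in paclitaxel-resistant, 583, 546 and 431 in docetaxel-resistant and 1021, 1114 and 937 in sensitive cells. Its differences were -1.01 ± 0.18 (adjusted p = 0.00249) and -1.04 ± 0.18 (adjusted p = 0.00228).

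**Figure D2:**
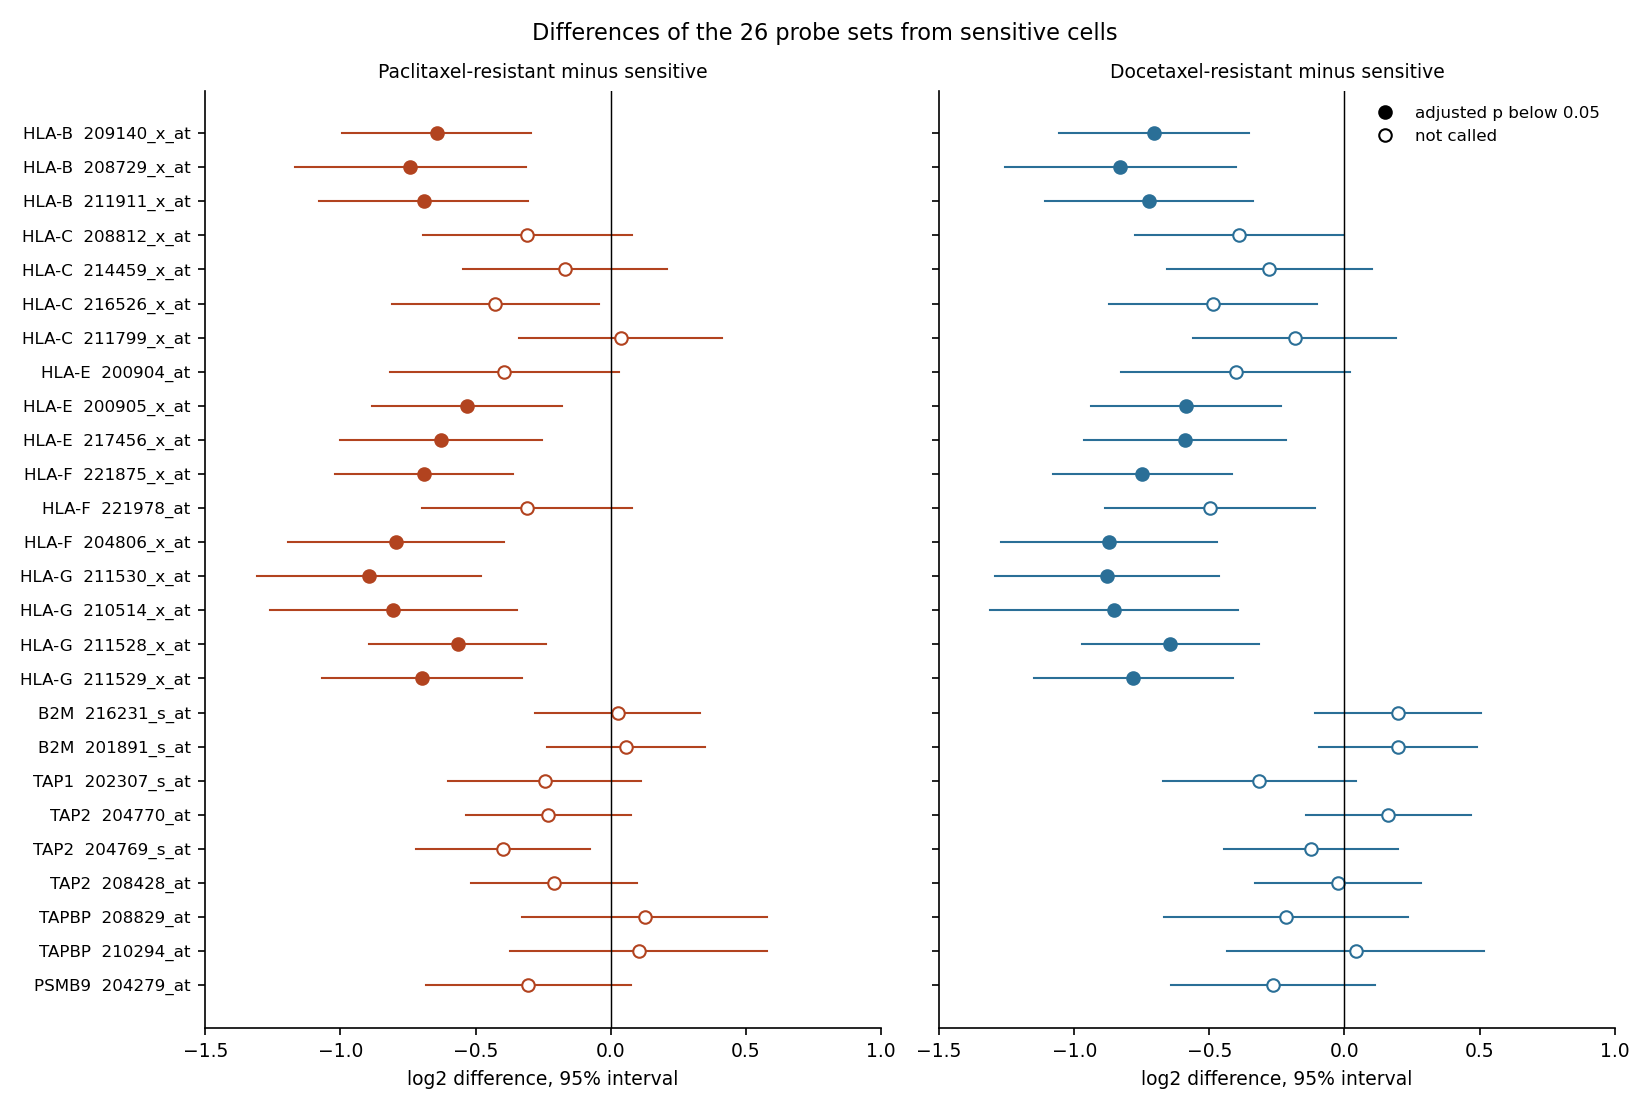
Log2 difference from sensitive cells with its 95% interval for the 26 probe sets, in paclitaxel-resistant (left) and docetaxel-resistant cells (right), 3 arrays per group. Filled points had an adjusted p below 0.05. The 11 filled points of HLA-B, HLA-E, HLA-F and HLA-G lie between -0.89 and -0.53 on the left and between -0.88 and -0.59 on the right, and the intervals of B2M and TAP1 cover 0.

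B2M, the light chain that pairs with class I heavy chains, was not called in any comparison. Probe set 216231_s_at read 3904, 2959 and 3313 in paclitaxel-resistant cells, 3745, 3740.5 and 4026 in docetaxel-resistant cells and 4268, 2928 and 3448 in sensitive cells. Probe set 201891_s_at read 2861, 2275 and 2369.6 in paclitaxel-resistant cells, 2639, 2735 and 3049.9 in docetaxel-resistant cells and 2830.2, 2026 and 2703 in sensitive cells. In both, docetaxel-resistant and paclitaxel-resistant arrays overlapped the sensitive ones. The differences in paclitaxel-resistant cells were 0.03 ± 0.14 (adjusted p = 0.937) and 0.06 ± 0.13 (adjusted p = 0.835), with intervals of -0.28 to 0.33 and -0.24 to 0.35. Their sign depended on the scaling, since they were -0.057 and -0.0024 without normalization and -0.14 and -0.084 with arrays centred on their medians. In docetaxel-resistant cells the differences were 0.20 ± 0.14 (adjusted p = 0.392) and 0.20 ± 0.13 (adjusted p = 0.37), and that of 216231_s_at was -0.0068 with median centring. The lower bounds of the B2M intervals, -0.28 in the paclitaxel and -0.11 in the docetaxel comparison, lay above all the called heavy chain differences. In the paclitaxel comparison the intervals still overlapped, since those of HLA-G reached up to -0.24 and that of HLA-E 200905_x_at reached higher still. A difference between genes was not tested.

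TAP1 and PSMB9 are both induced by interferon and share a promoter region. TAP1, the first transporter subunit, read 421, 331 and 294 in paclitaxel-resistant cells, 341, 385 and 331 in docetaxel-resistant cells and 380.5, 435 and 409.9 in sensitive cells. PSMB9 read 545, 412 and 399 in paclitaxel-resistant cells, 479.9, 549.9 and 449 in docetaxel-resistant cells and 573, 618 and 488 in sensitive cells. Each group overlapped the others in both genes. TAP1 differed by -0.24 ± 0.16 (adjusted p = 0.368) in paclitaxel-resistant and -0.32 ± 0.16 (adjusted p = 0.227) in docetaxel-resistant cells, with intervals of -0.60 to 0.11 and -0.67 to 0.04. PSMB9 differed by -0.30 ± 0.17 (adjusted p = 0.279) and -0.26 ± 0.17 (adjusted p = 0.353), with intervals of -0.68 to 0.07 and -0.64 to 0.11, so that a decrease as large as that of HLA-E 200905_x_at was within the intervals of both genes. Over the 9 arrays the levels of TAP1 and PSMB9 correlated at r = 0.91, a description over arrays that share their groups and scaling. The genes whose pattern was most like TAP1 were GATD3, HEMK1, DDIT3 and C8orf33, each at r = 0.93, and STAP2 at 0.92, among 6954 genes at or above the median intensity. Those most like PSMB9 were GATD3 (0.97), NOL3 (0.95), TH (0.95), TRMT1 (0.94) and PAPPA (0.94). PSMB9 ranked 12 of 6963 genes for TAP1, and TAP1 ranked 16 for PSMB9.

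TAP2, the second transporter subunit, had 3 probe sets, and none was called in any comparison with all arrays in the fit. Probe set 204769_s_at read 64.9, 78.4 and 59.9 in paclitaxel-resistant cells, 76.4, 104 and 101 in docetaxel-resistant cells and 85.9, 75.5 and 103 in sensitive cells, a difference of -0.40 ± 0.15 (adjusted p = 0.0842) in paclitaxel-resistant and -0.13 ± 0.15 (adjusted p = 0.635) in docetaxel-resistant cells. Probe set 204770_at read 43.1, 26.3 and 40.3 in paclitaxel-resistant cells, 53.4, 54.5 and 58.4 in docetaxel-resistant cells and 39.5, 39.8 and 44.0 in sensitive cells. As deposited, the docetaxel-resistant arrays lay above all others, and the paclitaxel-resistant ones overlapped the sensitive ones. It differed by -0.23 ± 0.14 (adjusted p = 0.311) in paclitaxel-resistant and 0.16 ± 0.14 (adjusted p = 0.499) in docetaxel-resistant cells. The paclitaxel-resistant arrays all lay below the sensitive ones in 0 of the 3 TAP2 probe sets as deposited and in 2 after normalization. Over all probe sets that held for 14.1% and 17.2%. Probe set 208428_at stayed under 16 on every array, where values hold little signal. TAPBP was measured at usable intensity by 208829_at alone, which read 555, 542 and 640.1 in paclitaxel-resistant cells, 523, 526 and 400.2 in docetaxel-resistant cells and 430.3, 527 and 628 in sensitive cells. Its groups overlapped in both comparisons with sensitive cells, at 0.13 ± 0.21 (adjusted p = 0.756) and -0.22 ± 0.21 (adjusted p = 0.547). The other TAPBP probe set, 210294_at, averaged 11.1 in paclitaxel-resistant, 10.8 in docetaxel-resistant and 9.01 in sensitive cells.

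The resistant lines were also compared with each other. Between paclitaxel- and docetaxel-resistant cells 0 of the 26 probe sets were called by limma, 1 had an unadjusted p under 0.05, and 1.6% of all probe sets were called. Those calls were 178 each way, and 131 lower and 84 higher without between-array normalization. Arrays of the lines did not overlap in 3 of the 26 as deposited and 2 after normalization, against 19.0% and 19.3% of all probe sets. In 2 of these the paclitaxel-resistant arrays were the lower ones on either scale, against 12.6% as deposited and 10.1% after normalization. The member with the unadjusted p under 0.05 was TAP2 204770_at, at -0.39 ± 0.14 (adjusted p = 0.233). The heavy chain differences between the lines ran from -0.04 to 0.22, with intervals from -0.43 to 0.60, and the median over all 26 was 0.06. Sensitive cells had the highest normalized mean in 20 of the 26 probe sets, paclitaxel-resistant cells in 3 and docetaxel-resistant cells in 3, and docetaxel-resistant cells had the lowest in 17. The order of the lines rested largely on 1 array. Without docetaxel-resistant replicate 3 the difference between the lines turned sign in 15 of the 26, against at most 5 without any other single array. The 11 called probe sets were by their selection lower in both lines than in sensitive cells, and in them the lines did not differ beyond their spread.

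Many heavy chain probe sets deviated from their group mean in 1 direction on the docetaxel-resistant arrays and on sensitive replicates 1 and 2, and less so elsewhere. Docetaxel-resistant replicate 3 was the lowest of its group in 15 of the 15 heavy chain probe sets ending in _x_at, with a median deviation from the group mean of -0.34 on the log2 scale. Sensitive replicate 2 was the highest of its group in 14 of 15, with a median of 0.23, and docetaxel-resistant replicate 1 was the highest in 13 of 15, with a median of 0.21. On paclitaxel-resistant replicates 1, 2 and 3 the deviations ran from -0.11 to 0.17, from -0.19 to 0.13 and from -0.28 to 0.14, with 11, 11 and 2 of the 15 above 0. On sensitive replicate 3 they ran from -0.30 to 0.16, with 6 of 15 above 0. B2M deviated otherwise, with a median of 0.07 in docetaxel-resistant replicate 3 and -0.13 in sensitive replicate 2. TAP1 and PSMB9 moved with the heavy chains, at -0.20 in docetaxel-resistant replicate 3 and 0.31 in sensitive replicate 2. As a description over 9 arrays that share their scaling, the within-group deviations of pairs of these 15 probe sets correlated at a median r of 0.85 over 105 pairs. With TAP1 and with PSMB9 the median r was 0.80, with HLA-E 200904_at it was 0.71, and with B2M it was -0.45 over 30 pairs. Array medians of intensity were highest in docetaxel-resistant replicate 3 and lowest in sensitive replicate 2, and the part of this in the spread was not tested.

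**Figure D3:**
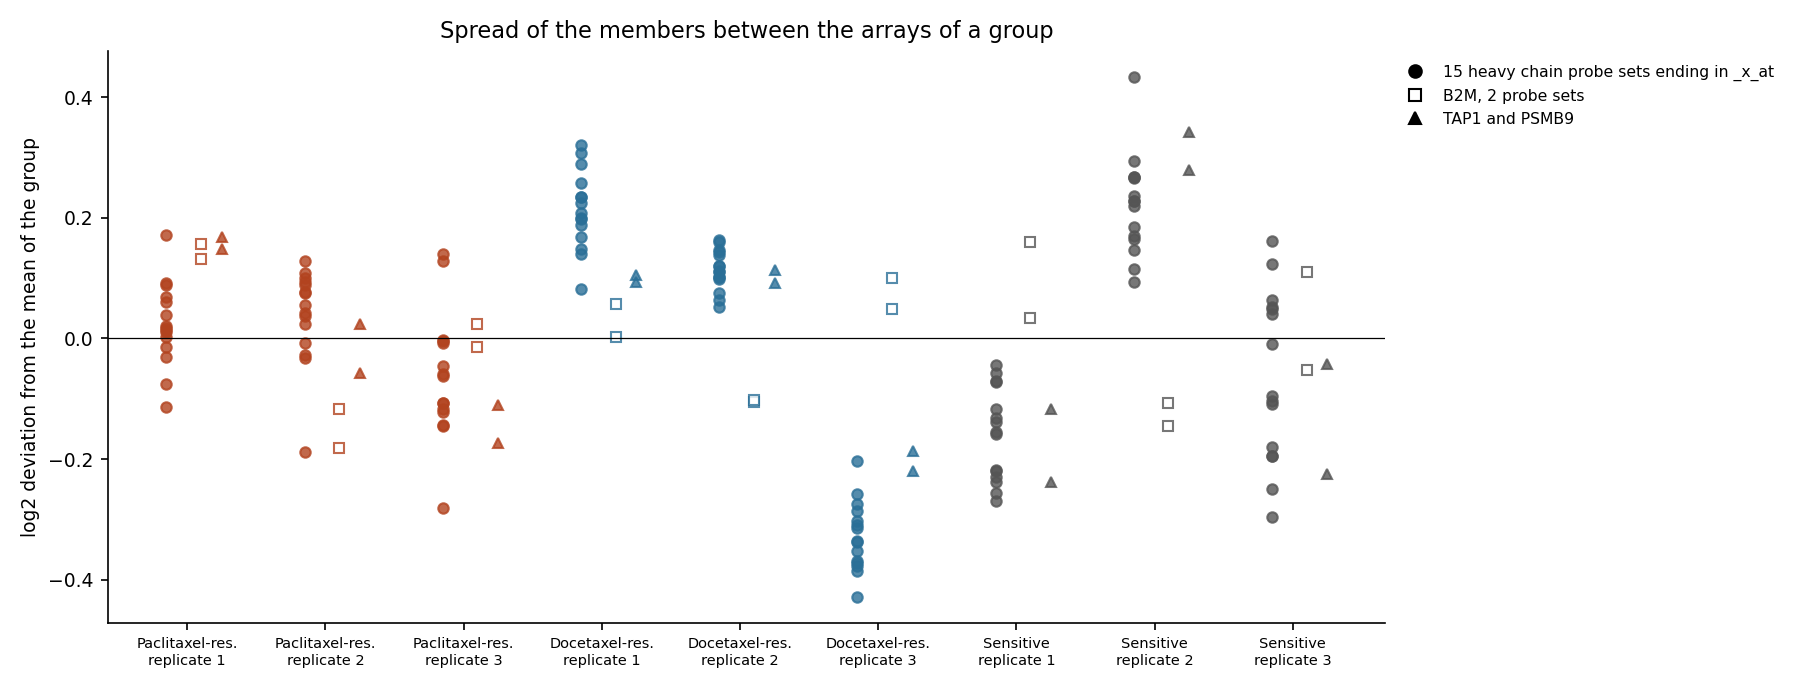
Log2 deviation from the mean of its group on each array, for the 15 heavy chain probe sets ending in _x_at (circles), both B2M probe sets (open squares) and TAP1 and PSMB9 (triangles). The circles of docetaxel-resistant replicate 3 all lie below 0, with a median of -0.34, and those of sensitive replicate 2 all lie above 0, with a median of 0.23.

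Other genes of the class I pathway were described from lists chosen with earlier results of these data known, with 1 probe set per gene. On that basis 21.0% of 11963 genes were called in the paclitaxel comparison, 10.4% lower and 10.6% higher, and 20.4% in the docetaxel comparison, 9.81% lower and 10.5% higher. Of 7 measured proteasome and activator genes 0 rose in either line, 1 fell in the paclitaxel-resistant and 2 in the docetaxel-resistant line, against 10.4% and 9.81% of all genes called lower. PSMB10, an immunoproteasome subunit like PSMB9, read 175, 152 and 127 in paclitaxel-resistant cells, 165, 197 and 175 in docetaxel-resistant cells and 291, 239 and 204 in sensitive cells. All its resistant arrays lay below the sensitive ones, at -0.65 ± 0.16 (adjusted p = 0.0167) and -0.55 ± 0.16 (adjusted p = 0.0375). PSMB6, the constitutive subunit that PSMB9 replaces, differed by -0.18 ± 0.12 (adjusted p = 0.371) in paclitaxel-resistant cells and fell in docetaxel-resistant cells, at -0.43 ± 0.12 (adjusted p = 0.0315). PSMB8, another immunoproteasome subunit, differed by -0.21 and -0.15 and was not called.

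Of 8 measured peptide trimming enzymes 2 rose and 0 fell in each line, against 10.6% and 10.5% of all genes called higher. BLMH, a cysteine aminopeptidase, rose in both, at 0.79 ± 0.17 (adjusted p = 0.00637) in paclitaxel-resistant and 0.85 ± 0.17 (adjusted p = 0.00444) in docetaxel-resistant cells, with 160.4, 122 and 184 in paclitaxel-resistant cells, 158, 178 and 194 in docetaxel-resistant cells and 90.6, 52.5 and 97.3 in sensitive cells. NRDC, a metalloendopeptidase, rose in the paclitaxel-resistant line at 1.11 ± 0.26 (adjusted p = 0.00983) and stood at 0.75 ± 0.26 (adjusted p = 0.0648) in the docetaxel-resistant line. NPEPPS, the puromycin-sensitive aminopeptidase, stood at 0.32 ± 0.18 (adjusted p = 0.284) in the paclitaxel-resistant line and rose in the docetaxel-resistant line at 0.71 ± 0.18 (adjusted p = 0.0192). Between the lines NRDC and NPEPPS differed by 0.36 ± 0.26 (adjusted p = 0.681) and -0.39 ± 0.18 (adjusted p = 0.433).

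The next list held chaperones and other endoplasmic reticulum proteins. Of its 5 measured genes 2 rose and 0 fell in each line, against the same 10.6% and 10.5%. CANX (calnexin), which holds newly made heavy chains before B2M joins them, read 2250.4, 1439.6 and 2245 in paclitaxel-resistant cells, 1564, 1668 and 2198 in docetaxel-resistant cells and 846, 584 and 819 in sensitive cells. Resistant and sensitive arrays did not overlap, and CANX rose by 1.37 ± 0.19 (adjusted p = 0.000401) and 1.20 ± 0.19 (adjusted p = 0.000979), with its other 2 probe sets between 1.15 and 1.27 in both comparisons. PDIA3 (ERp57), the oxidoreductase bound to tapasin in the loading complex, rose by 0.66 ± 0.15 (adjusted p = 0.00909) and 1.02 ± 0.15 (adjusted p = 0.000757), with 1074, 1388 and 1264 in paclitaxel-resistant cells, 1575, 1572 and 1730.3 in docetaxel-resistant cells and 791, 652 and 873 in sensitive cells. CALR (calreticulin) differed by 0.32 and 0.22 and was not called.

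Of 20 measured regulators of class I and of interferon signalling 3 rose and 3 fell in each line, against 21.0% and 20.4% of all genes called in either direction. IRF1, an interferon-induced activator of class I, TAP1 and PSMB9 promoters, read 134, 104 and 123 in paclitaxel-resistant cells, 127, 136 and 111 in docetaxel-resistant cells and 194, 212 and 249 in sensitive cells. All its resistant arrays lay below the sensitive ones, and it fell by 0.82 ± 0.17 (adjusted p = 0.00483) in paclitaxel-resistant and by 0.89 ± 0.17 (adjusted p = 0.00303) in docetaxel-resistant cells on the log2 scale. RFXANK, a subunit of the RFX complex that binds class I and class II promoters, differed by -0.95 ± 0.18 (adjusted p = 0.00374) and -0.66 ± 0.18 (adjusted p = 0.0281), lower in both. JAK1, a kinase of interferon receptors, rose by 0.84 ± 0.14 (adjusted p = 0.00173) and 0.74 ± 0.14 (adjusted p = 0.0039). IFNAR2, a chain of the type I interferon receptor, rose by 1.25 ± 0.16 (adjusted p = 0.0003) and 1.32 ± 0.16 (adjusted p = 0.00021) in the probe set 204785_x_at, while its other probe set differed by 0.18 and 0.07 and was not called. The other called regulators, outside the rule for named genes, were RFX5, a further RFX subunit, higher in both lines at 0.53 and 0.59, and the NF-Y subunits NFYA, lower in the paclitaxel-resistant line at -0.44, and NFYC, lower in the docetaxel-resistant line at -0.61.

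**Figure D4:**
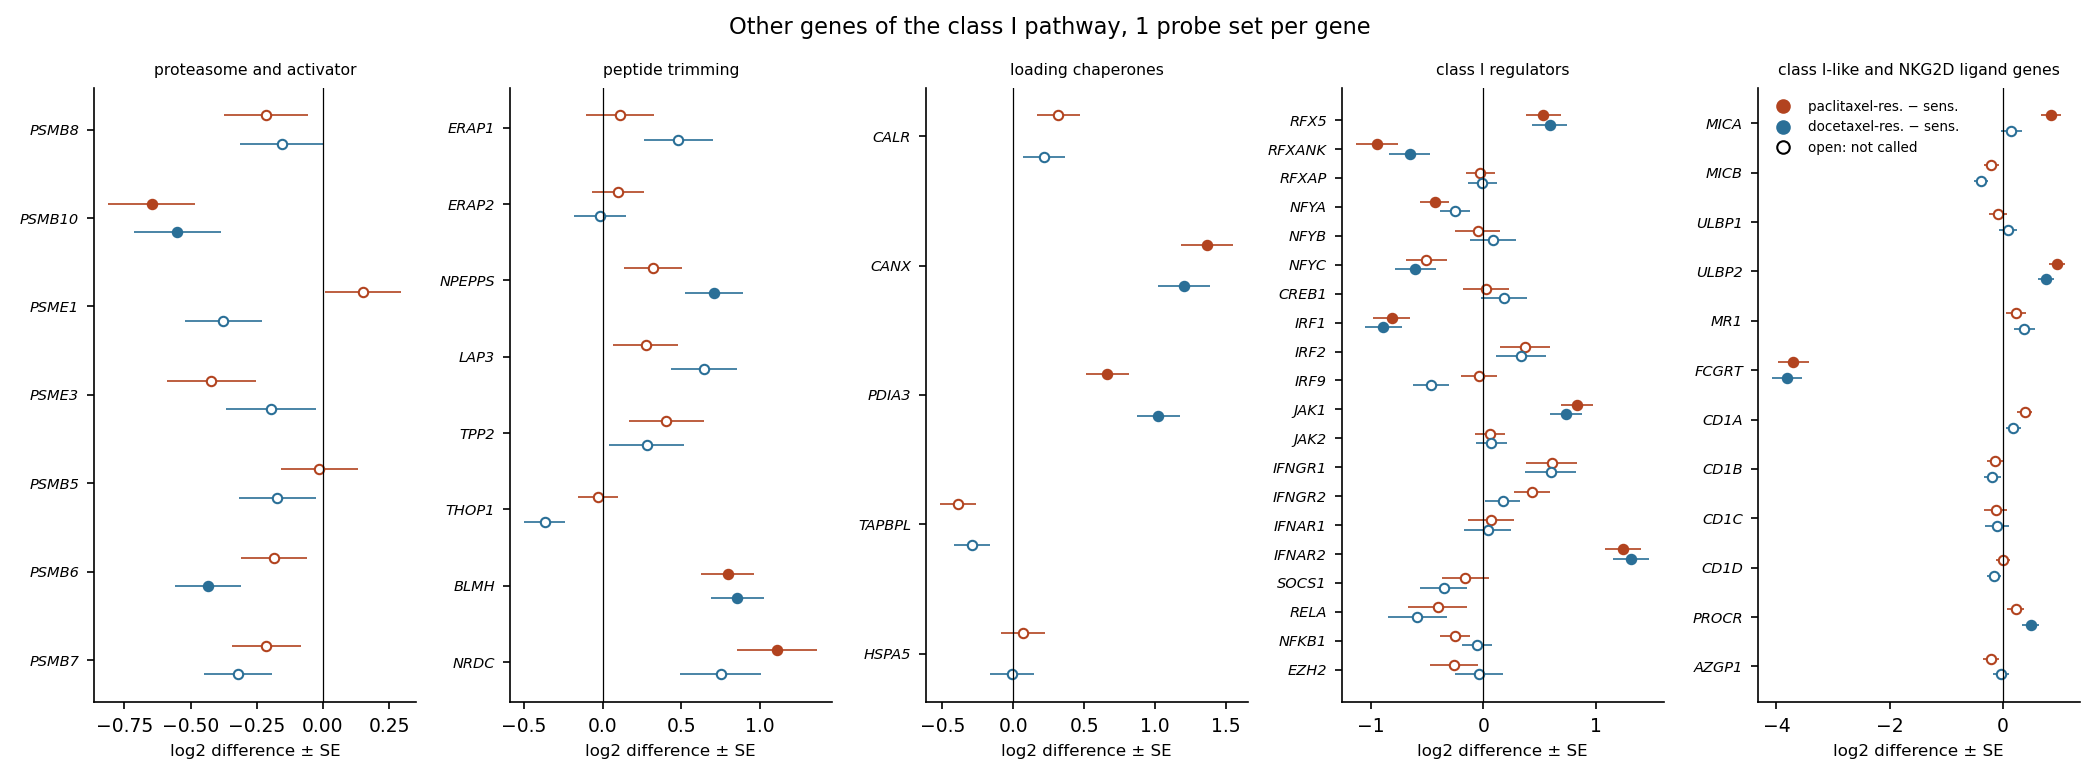
Log2 difference from sensitive cells ± SE for the measured genes of 5 lists, 1 probe set per gene, paclitaxel-resistant above docetaxel-resistant in each row. Filled points had an adjusted p below 0.05. CANX and PDIA3 lie right of 0 in both comparisons, IRF1, RFXANK and PSMB10 left of 0, and FCGRT below -3.5.

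Of 12 measured class I-like and NKG2D ligand genes 2 rose and 1 fell in each line, near the 21.0% and 20.4% of all genes. FCGRT, the heavy chain of the neonatal Fc receptor, which also pairs with B2M, read 0.01, 14.4 and 0.02 in paclitaxel-resistant cells, 9.39, 0.01 and 0.01 in docetaxel-resistant cells and 215, 251 and 241 in sensitive cells. It was thus near 0 on most resistant arrays, and its differences of -3.70 ± 0.27 (adjusted p = 3.89e-06) and -3.81 ± 0.27 (adjusted p = 2.58e-06) are understated by the offset. ULBP2, a ligand of the natural killer cell receptor NKG2D, rose by 0.96 ± 0.14 (adjusted p = 0.000615) and 0.77 ± 0.14 (adjusted p = 0.00266). MICA, another NKG2D ligand and a neighbour of HLA-B, read 532, 549 and 326 in paclitaxel-resistant cells, 272, 322 and 295 in docetaxel-resistant cells and 236, 235 and 255 in sensitive cells. It rose in the paclitaxel-resistant line, at 0.85 ± 0.18 (adjusted p = 0.00705), stood at 0.15 ± 0.18 (adjusted p = 0.653) in the docetaxel-resistant line, and differed between the lines by 0.70 ± 0.18 (adjusted p = 0.0934), which did not pass the test. PROCR, a class I-like receptor of protein C, stood at 0.23 ± 0.15 (adjusted p = 0.362) in the paclitaxel-resistant line and rose in the docetaxel-resistant line by 0.49 ± 0.15 (adjusted p = 0.043).

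Of the 10 genes, 9 lie in the MHC region of chromosome 6 and B2M lies on chromosome 15. From HLA-F to TAPBP 111 genes were measured, 9 of them from the 10 genes. The rest still hold class I-like genes such as MICA. Of the other 102, 2 rose and 14 fell in the paclitaxel-resistant and 0 rose and 21 fell in the docetaxel-resistant line, against 10.4% and 9.81% of all genes called lower. The paclitaxel count is near that share. The pair that rose, named after its values were seen, was MICA and HLA-F-AS1, the antisense gene of HLA-F, at 0.67 ± 0.14 (adjusted p = 0.00637) in paclitaxel-resistant and 0.35 ± 0.14 (adjusted p = 0.119) in docetaxel-resistant cells. The medians of the 102 were -0.17 and -0.23, against -0.03 and -0.05 over all probe sets. The 6 with the smallest adjusted p were all class II genes or pseudogenes. HLA-DRA, the alpha chain that presents peptides to CD4+ T cells, read 0.600, 3.87 and 0.02 in paclitaxel-resistant cells, 4.31, 0.01 and 0.05 in docetaxel-resistant cells and 622, 504 and 422 in sensitive cells, and HLA-DRB1, its partner, 124, 85.7 and 76.2 in paclitaxel-resistant cells, 111, 74.2 and 97.9 in docetaxel-resistant cells and 4631, 4441 and 3094 in sensitive cells. HLA-DRB1 differed by -5.15 ± 0.20 (adjusted p = 1.81e-08) in paclitaxel-resistant and by -5.25 ± 0.20 (adjusted p = 1.31e-08) in docetaxel-resistant cells. HLA-DRA, HLA-DRB6 and HLA-DPB1 averaged under 16 in both resistant lines, so the sizes of their differences are set by the offset. HLA-DRA was called lower at -4.94 and -4.95. HLA-DRB6, a pseudogene, differed by -3.72 and -3.69 in its probe set 217362_x_at and by 0.00 and -0.08 in its other one. HLA-DPA1 stood at -2.54 and -2.11, with another probe set at -0.08 and -0.22, HLA-DMA at -2.26 and -1.79 and HLA-DPB1 at -2.10 and -1.94. TAP2, TAP1 and PSMB9, which lie among these class II genes, were not called.

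**Figure D5:**
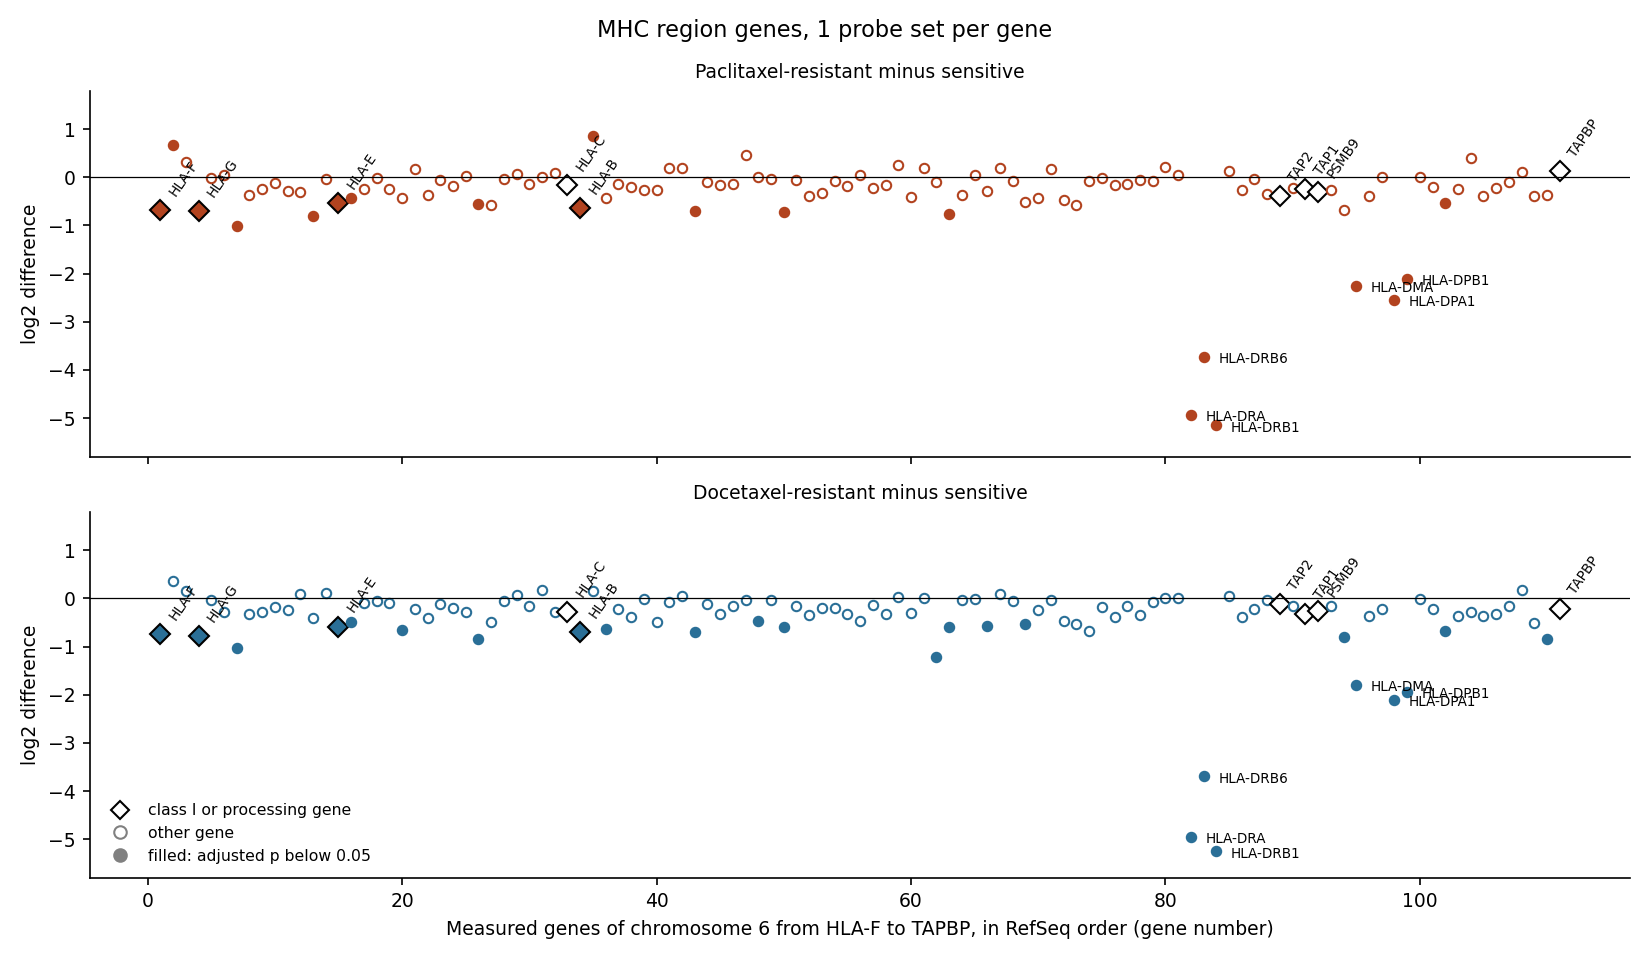
Log2 difference from sensitive cells of the 111 measured genes of chromosome 6 from HLA-F to TAPBP, in RefSeq gene order, 1 probe set per gene, paclitaxel-resistant above and docetaxel-resistant below. Diamonds are the 9 of the genes described here that lie in the region, circles are all others, including class I-like MICA, and filled symbols had an adjusted p below 0.05. HLA-DRA and HLA-DRB1 lie near -5, HLA-F, HLA-G, HLA-E and HLA-B between -0.78 and -0.53, and TAP2, TAP1 and PSMB9 are open.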

How the data were processed

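Total RNA of 9 samples, 3 passages of each of 3 groups, was hybridized to Affymetrix HU133A arrays. The deposited values are intensities on a linear scale, summarized per probe set by the authors with the PLIER method of Affymetrix Expression Console 1.1.2, per the submitters' processing notes. For background correction, normalization and detection the method is not given in the sources used here. Array medians differed by up to 0.27 on the log2 scale. An offset of 16 was added, log2 was taken, and the arrays were quantile normalized. Differences came from lmFit and eBayes of limma 3.58.1 in R 4.3.3, with 6 residual and 5.82 prior degrees of freedom, and Benjamini-Hochberg adjustment over 22215 human probe sets at a threshold of 0.05. The fit was tested on simulated data in which probe sets varied independently. The heavy chain probe sets here did not, so that test does not bear on counts over them. Groups follow the sample descriptions, which give verapamil for all 3 groups, whereas the treatment protocol names it for sensitive cells. All probe sets of the 10 genes are covered. From each other list up to 4 called genes with the smallest adjusted p were named (1 probe set per gene, that of highest mean intensity), from the MHC region up to 6, and for TAP1 and PSMB9 the 5 most correlated genes, and a few other genes, such as HLA-J, were picked with their values in view. The members and lists were chosen with earlier results of these data known. Alternatives changed the offset, normalization, filter, probe sets, prior, replicate block and arrays used. Intervals are 95%.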

Additional observations from a re-analysis of the deposited data

Results flagged for a closer look

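TAP2 probe set 204770_at stood out because every paclitaxel-resistant array lay below and every docetaxel-resistant array above the sensitive mean on the normalized scale. The paclitaxel- minus docetaxel-resistant difference was -0.39 ± 0.14 (adjusted p = 0.233), which limma's test of that difference did not call. The other TAP2 probe set with signal, 204769_s_at, gave -0.27 ± 0.15 (adjusted p = 0.521) for the same difference.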

How the results depend on the processing

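All 11 member calls are on heavy chain probe sets ending in _x_at, which may read more than 1 class I gene, and 3 arrays a group limit the precision. TAP2 208428_at and TAPBP 210294_at averaged under 16, the offset added before the log, so their differences hold little signal. The counts of member probe sets called lower were 11 in each comparison with sensitive cells. With an offset of 1 the paclitaxel count was 5. With _x_at and _s_at probe sets removed, which kept 7 members, both counts were 0, and with 1 probe set per gene, which kept 10, both were 4, since fewer probe sets of the heavy chains were tested. Leaving out 1 array at a time gave 4 to 11 in the paclitaxel and 5 to 13 in the docetaxel comparison. With sensitive replicate 2 and docetaxel-resistant replicate 3 both left out, the arrays of extreme median intensity and an alternative chosen after seeing the data, the counts were 9 and 0, and all docetaxel calls were lost with the sign kept. Over all probe sets, calls against sensitive cells numbered 1828 in the paclitaxel and 1721 in the docetaxel comparison with _x_at and _s_at probe sets removed, 2599 and 2539 with 1 probe set per gene, and 1970 in the docetaxel comparison without the arrays of extreme median. Leaving out 1 array at a time gave 2447 to 3970 docetaxel calls. Calls between the resistant lines, 356 in all, numbered 84 with an offset of 1, 215 without between-array normalization, 131 with _x_at and _s_at probe sets removed, 182 without the arrays of extreme median and 111 to 421 with 1 array left out. The cause of these shifts was not tested, beyond the smaller number of probe sets or arrays. With the replicate number as a block the member counts were 10 and 11 and the calls between the lines 214. Deviations of arrays with the same number correlated at -0.40 to 0.29, so the numbers were not taken to pair the arrays. Of 1368 member values under the alternatives 57 lost and 7 gained a call, and 79 turned sign, all of values called in neither fit. Without between-array normalization, the sign turned for B2M 201891_s_at (-0.0024) and B2M 216231_s_at (-0.057) in paclitaxel-resistant against sensitive cells. There it also turned for TAP2 204769_s_at (0.073) and TAP2 208428_at (0.021) in docetaxel-resistant against sensitive cells. There it also turned for HLA-E 200904_at (-0.087), HLA-E 200905_x_at (-0.016), TAP1 202307_s_at (-0.026) and HLA-B 211911_x_at (-0.013) in paclitaxel- against docetaxel-resistant cells. With arrays centred on their medians, the sign turned for B2M 201891_s_at (-0.084), HLA-C 211799_x_at (-0.055) and B2M 216231_s_at (-0.14) in paclitaxel-resistant against sensitive cells. There it also turned for TAPBP 210294_at (-0.068) and B2M 216231_s_at (-0.0068) in docetaxel-resistant against sensitive cells. There it also turned for HLA-E 200904_at (-0.033) in paclitaxel- against docetaxel-resistant cells. With an offset of 1, the sign turned for TAPBP 210294_at (-0.092) in docetaxel-resistant against sensitive cells. Without both arrays of extreme median, the sign turned for B2M 201891_s_at (-0.015) and B2M 216231_s_at (-0.029) in paclitaxel-resistant against sensitive cells. There it also turned for PSMB9 204279_at (0.017), TAP2 208428_at (0.0079), TAPBP 208829_at (0.062) and HLA-C 211799_x_at (0.11) in docetaxel-resistant against sensitive cells. There it also turned for HLA-E 200904_at (-0.15), HLA-E 200905_x_at (-0.093), TAP1 202307_s_at (-0.021), HLA-F 204806_x_at (-0.11), HLA-B 208729_x_at (-0.088), HLA-C 208812_x_at (-0.11), HLA-B 209140_x_at (-0.077), TAPBP 210294_at (-0.18), HLA-G 210514_x_at (-0.14), HLA-G 211528_x_at (-0.024), HLA-G 211529_x_at (-0.072), HLA-B 211911_x_at (-0.12), HLA-C 214459_x_at (-0.059), HLA-C 216526_x_at (-0.10) and HLA-F 221875_x_at (-0.071) in paclitaxel- against docetaxel-resistant cells. With 1 array left out the sign also turned, over the range from lowest to highest value, for B2M 201891_s_at (-0.016 to 0.11), TAPBP 208829_at (-0.084 to 0.23), TAPBP 210294_at (-0.050 to 0.28), HLA-C 211799_x_at (-0.040 to 0.17) and B2M 216231_s_at (-0.052 to 0.12) in paclitaxel-resistant against sensitive cells. The same held for TAP2 208428_at (-0.15 to 0.043) and TAPBP 210294_at (-0.096 to 0.28) in docetaxel-resistant against sensitive cells. The same held for HLA-E 200904_at (-0.15 to 0.17), HLA-E 200905_x_at (-0.092 to 0.14), TAP1 202307_s_at (-0.021 to 0.16), PSMB9 204279_at (-0.15 to 0.018), HLA-F 204806_x_at (-0.11 to 0.24), HLA-B 208729_x_at (-0.088 to 0.23), HLA-C 208812_x_at (-0.11 to 0.20), HLA-B 209140_x_at (-0.078 to 0.16), TAPBP 210294_at (-0.18 to 0.24), HLA-G 210514_x_at (-0.14 to 0.16), HLA-G 211528_x_at (-0.024 to 0.14), HLA-G 211529_x_at (-0.071 to 0.16), HLA-G 211530_x_at (-0.23 to 0.14), HLA-B 211911_x_at (-0.12 to 0.14), HLA-C 214459_x_at (-0.060 to 0.23), HLA-C 216526_x_at (-0.098 to 0.15), HLA-E 217456_x_at (-0.22 to 0.091) and HLA-F 221875_x_at (-0.070 to 0.13) in paclitaxel- against docetaxel-resistant cells.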
